A study of Mus musculus with 4 samples.

Results

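The genes described here are the writers, partners and erasers of histone H3 lysine 4 (H3K4) methylation. They encode the MLL and SET1 methyltransferase complexes built around Wdr5, members of other complexes linked to Wdr5, and the demethylases of H3K4 and H3K27. They were chosen by name, 35 symbols in all, and each was taken as the row of that symbol with the highest mean level in the authors' tables. Of these, 34 were found in both tables, among 22201 distinct gene entries, each as a single row with at least 1 FPKM in at least one library of each table. Setd1b, which encodes the other SET1 methyltransferase, was not analysed here.

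Polyadenylated RNA had been sequenced from MMTV-Myc cells, mouse mammary tumour cells carrying a Myc transgene under the promoter of the mouse mammary tumour virus, in 4 groups of 1 library each. Mammosphere cells, labelled wild type, were taken at day 20 of growth without attachment in medium with EGF and bFGF. They were set against bulk cells of day 0, also labelled wild type, which grew with serum and insulin. Cells with a lentiviral pLKO.1 hairpin against Cbx8 (sh68), kept in puromycin, were set against cells with a control hairpin, named shLuc in the genotype label and shScr in the description. All 4 groups carry the Myc transgene, only 1 hairpin against Cbx8 was sequenced, and the labels do not say in which of these 2 media the hairpin cells grew.

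Wdr5 is a ring-shaped WD40 repeat protein that, with Ash2l, Rbbp5 and Dpy30, forms the scaffold on which a MLL or SET1 enzyme methylates H3K4. Trimethylated H3K4 marks active promoters and monomethylated H3K4 marks enhancers, whereas methylated H3K27 is the mark of Polycomb repression. Cbx8 is a chromodomain reader of that Polycomb mark, and the series title names it together with Wdr5 in mammary tumour formation.

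Each value below is an FPKM (read fragments normalised for the length of the transcript and for the size of the library) from the authors' tables, and each group is 1 library, so a difference compares 2 libraries and carries no estimate of replicate error and no test here. Log2 changes are log2 of (FPKM + 1) in the first-named library over that in its control, which understates the change of low genes. The tables were made in separate runs, so changes were computed only within a table. As a check of the labels, Cbx8 had 1.23 FPKM in the knockdown library and 4.74 FPKM in its control, a 3.84-fold lower level (log2 change −1.36), and in the authors' deposited table q = 0.385. In the other table Cbx8 had 1.48 FPKM in mammospheres and 3.46 FPKM in bulk cells. In mammospheres the median of all 11603 measured genes was shifted by −0.24 on the log2 scale, so changes there are also given relative to that median. In the knockdown table the median of 10685 measured genes was −0.006. Measured genes are rows with 1 FPKM or more in either library.

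Most cell type markers, epithelial ones included, differed strongly between mammospheres and bulk cells. The 2-fold counts of markers are on the scale with 1 FPKM added, where 17.3% of all measured genes were 2-fold lower in mammospheres. Markers of low level can thus miss the limit although their plain ratio exceeds 2-fold. All 10 leukocyte markers measured were at least 2-fold lower in mammospheres, summing to 0.434 FPKM there and 377 FPKM in bulk cells, with Tyrobp, Fcer1g and Cd3e listed at 0 in mammospheres. The farthest apart were Cd74, with 0.0353 FPKM in mammospheres and 164 FPKM in bulk cells (log2 change −7.31), and Lyz2, with 0.0737 FPKM and 122 FPKM (−6.83). Of 8 fibroblast markers, 7 were at least 2-fold lower, and the list summed to 1.03 FPKM in mammospheres and 314 FPKM in bulk cells, with Lum and Dpt listed at 0 in mammospheres. The collagen genes Col3a1 (−6.93) and Col1a1 (−6.54) were the farthest apart of these. All 4 basal markers measured, led by Krt14 (−4.23), and both endothelial ones, Pecam1 (−2.10) and Cdh5 (−1.20), were 2-fold lower too, as were 4 of 6 luminal ones, with Cldn7 and Elf5 under 1 FPKM in both libraries and Epcam at 0.0908 FPKM in mammospheres and 1.06 FPKM in bulk cells. The epithelial keratin Krt18 had 58.2 FPKM in mammospheres against 570 FPKM in bulk cells, and Krt8 had 5.14 FPKM against 334 FPKM. Krt19, another keratin of the luminal list, did not go with them, with 9.65 FPKM in mammospheres and 9.08 FPKM in bulk cells (0.08). In the hairpin libraries Krt18 had 256 FPKM with the Cbx8 hairpin and 261 FPKM with the control hairpin. Krt8 had 79.3 FPKM and 63.2 FPKM there, Krt19 72.3 FPKM and 90.1 FPKM, and the basal keratin Krt14 10.5 FPKM and 1.09 FPKM. None of the leukocyte markers was listed in that table. Fewer cells of a type and less RNA per cell cannot be told apart in bulk RNA, and the part of these cell types in the results below was not tested.

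The group as a whole differed little between the libraries of either pair. In mammospheres 1 gene (Ogt) was at least 2-fold higher and 2 (Kdm6b and Mcrs1) at least 2-fold lower among 34, that is on the scale with 1 FPKM added, whereas 3.54% of all measured genes were 2-fold higher and 17.3% were 2-fold lower. The median log2 change of the 34 genes was −0.001, against −0.24 for all measured genes, and 17 of the 34 lay below 0 and 17 above it, where 65.3% of all measured genes lay below and 34.7% above. At 1.5-fold, 3 were higher and 3 lower, against 9.86% and 30.7% of all measured genes. Relative to the median gene their median was 0.24, and 10 of the 34 lay below 0. The 2-fold split turned with the scaling, since 1 gene (Ogt) was higher and 1 (Kdm6b) lower after centring on the median gene, whereas 3 (Ogt, Men1 and Hcfc1) were higher and 1 (Kdm6b) lower with the upper quartiles set equal. In the Cbx8 knockdown library no gene reached 2-fold, where 0.299% of all measured genes were 2-fold higher and 0.449% 2-fold lower. None reached 1.5-fold either on the scale with 1 FPKM added, where 2.1% were 1.5-fold higher and 2.18% 1.5-fold lower. As a plain ratio Hcfc2 was 1.60-fold higher. There 30 of the 34 lay below 0, against 51.2% of all measured genes, and 4 above it, against 48.8%. After centring on the median gene 29 lay below 0. Their median was −0.17, against −0.006 for all measured genes. In the tables the authors deposited, 1 of the 15 genes they tested passed q under 0.05 in mammospheres (Kdm6b), where 11.9% of all tested rows did. None of 34 passed in the knockdown, where 0.205% of all rows did.

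**Figure D1:**
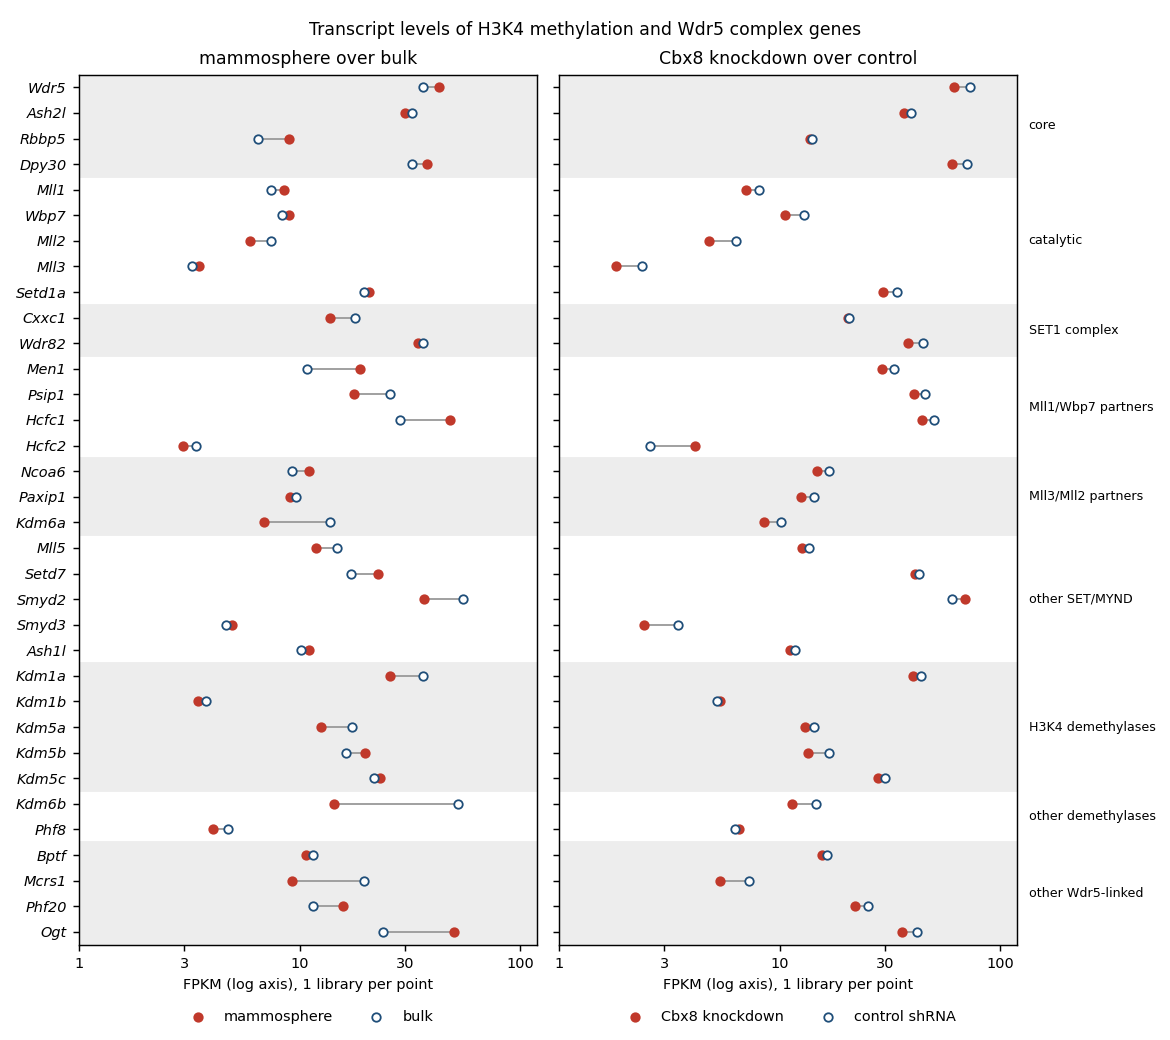
FPKM on a log axis for the 34 genes, grouped by role (shaded bands), in mammospheres and bulk cells (left) and in Cbx8 knockdown and control cells (right), 1 library per point with a line joining the pair. Kdm6b, Mcrs1 and Ogt have the longest lines on the left, and on the right most filled points lie slightly left of the open ones.

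Apart from Rbbp5, the core subunits were among the more abundant transcripts of the group. Wdr5, the scaffold protein itself (mm9 chromosome 2, 27370666 to 27392055), had 43.0 FPKM in mammospheres against 36.4 FPKM in bulk cells, and 61.8 FPKM in the knockdown against 73.2 FPKM in its control. It was thus slightly higher in mammospheres (log2 change 0.23, or 0.47 relative to the median gene) and slightly lower in the knockdown (−0.24). Dpy30, the small dimeric subunit that docks on Ash2l, followed it closely, with 37.7 FPKM in mammospheres and 32.4 FPKM in bulk cells, and with 60.5 FPKM in the knockdown and 71.0 FPKM in its control. Its log2 changes were 0.22 and −0.23. Ash2l, which with Rbbp5 stimulates the enzyme, had 30.1 FPKM in mammospheres against 32.5 FPKM in bulk cells, and 36.9 FPKM in the knockdown against 39.6 FPKM in its control. Its change in mammospheres was −0.11, or 0.13 relative to the median gene, so its direction turns with the scaling. Rbbp5 was the least abundant core transcript in all 4 libraries, with 8.99 FPKM in mammospheres, 6.47 FPKM in bulk cells, 13.7 FPKM in the knockdown and 14.1 FPKM in its control. The highest core transcript, Wdr5 in each library, exceeded Rbbp5 by 4.78-fold in mammospheres, 5.63-fold in bulk cells, 4.50-fold in the knockdown and 5.19-fold in its control. Wdr5 stood above 87.8% of the measured genes in mammospheres and 81.0% in bulk cells, and above 85.4% in the knockdown and 88.4% in its control.

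The promoter of Wdr5 is shown because the gene is the hub of these complexes, beside the promoters of the 3 members whose start region holds the E-box CACGTG, the site class bound by Myc with Max. The windows run from 250 bases before to 50 bases after the gene start on the gene's strand (RefSeq, GRCm38.p6), and capitals mark CACGTG. Both strands were searched for CACGTG, for the AP-1 site TGANTCA and for the cyclic AMP response element TGACGTCA, and no member window held more than 1 of these motifs.

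Wdr5: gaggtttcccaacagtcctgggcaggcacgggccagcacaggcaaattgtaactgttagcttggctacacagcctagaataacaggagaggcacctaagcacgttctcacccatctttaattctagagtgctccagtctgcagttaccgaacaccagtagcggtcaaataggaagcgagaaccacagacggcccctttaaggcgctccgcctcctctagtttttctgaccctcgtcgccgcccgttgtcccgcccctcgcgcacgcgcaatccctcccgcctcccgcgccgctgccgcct
Kdm6a: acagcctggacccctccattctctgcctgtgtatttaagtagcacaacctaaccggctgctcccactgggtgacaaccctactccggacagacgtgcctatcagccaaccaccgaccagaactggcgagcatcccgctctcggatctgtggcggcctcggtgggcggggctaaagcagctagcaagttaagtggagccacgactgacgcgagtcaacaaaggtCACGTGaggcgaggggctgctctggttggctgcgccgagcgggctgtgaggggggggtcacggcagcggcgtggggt
Hcfc2: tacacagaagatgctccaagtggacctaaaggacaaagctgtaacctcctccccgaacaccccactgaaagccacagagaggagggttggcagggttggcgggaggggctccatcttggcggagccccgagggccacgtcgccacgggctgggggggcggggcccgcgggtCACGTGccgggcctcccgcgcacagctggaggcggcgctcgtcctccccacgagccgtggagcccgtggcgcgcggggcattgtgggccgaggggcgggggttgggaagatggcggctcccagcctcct
Bptf: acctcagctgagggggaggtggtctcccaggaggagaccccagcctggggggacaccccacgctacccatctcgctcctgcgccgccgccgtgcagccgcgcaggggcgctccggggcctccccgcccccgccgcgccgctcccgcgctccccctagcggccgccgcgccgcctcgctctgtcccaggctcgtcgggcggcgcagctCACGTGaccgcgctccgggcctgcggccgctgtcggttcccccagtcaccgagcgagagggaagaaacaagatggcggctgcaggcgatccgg

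These windows lie at chr2:27514897-27515196 (plus strand), chrX:18162325-18162624 (plus strand), chr10:82698864-82699163 (plus strand) and chr11:107132098-107132397 (minus strand). Of 35 members, 25 had a promoter in the RefSeq table, and 3 of them (12.0%) held the E-box, against 8.09% of 27025 genes. The median share of G and C bases was 62.7% in the 32 member windows and 52.7% in all 32851 windows. The E-box began 27 bases before the start in Kdm6a, 79 bases before the start in the Hcfc2 window shown and 43 bases before the start in Bptf. The AP-1 site was in 1 of 25 (Kdm5c), against 8.97% of genes, and the cyclic AMP response element in 2 of 25 (Phf8 and Wdr82), against 2.03%. A match describes letters, not a bound site, and the Wdr5 window held none of the 3 motifs. Members with the E-box went different ways in the knockdown, where the log2 change was −0.23 for Kdm6a, 0.52 for Hcfc2 and −0.07 for Bptf. In mammospheres it was −0.91 for Kdm6a, −0.14 for Hcfc2 and −0.09 for Bptf. Relative to the median gene these were −0.67, 0.10 and 0.14. The members with no promoter in the table were Ash2l, Wbp7, Setd1b, Cxxc1, Psip1, Mll5, Smyd3, Ash1l, Kdm5a and Kdm6b.

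The catalytic subunits differed more in level from each other than between the libraries of a pair. In this build's naming Mll1, Wbp7, Mll3 and Mll2 are the genes now called Kmt2a, Kmt2b, Kmt2c and Kmt2d. That Mll2 is Kmt2d follows from its place on chromosome 15, since the older symbol has also been used for Wbp7, on chromosome 7. Setd1a, the enzyme of a SET1 complex, was the highest of the 5 in every library, with 20.7 FPKM in mammospheres against 19.7 FPKM in bulk cells, and 29.4 FPKM in the knockdown against 33.9 FPKM in its control. Wbp7 came next in every library, with 8.94 FPKM in mammospheres, 8.32 FPKM in bulk cells, 10.5 FPKM in the knockdown and 12.9 FPKM in its control. Mll3, an enzyme of enhancer monomethylation, was the lowest throughout, with 3.49 FPKM in mammospheres, 3.26 FPKM in bulk cells, 1.80 FPKM in the knockdown and 2.39 FPKM in its control. The order of the middle pair was not the same in each library. Mll1, the founding member, had 8.46 FPKM in mammospheres, 7.39 FPKM in bulk cells, 7.04 FPKM in the knockdown and 8.05 FPKM in its control. Mll2, the paralog of Mll3, had 5.94 FPKM in mammospheres, 7.44 FPKM in bulk cells, 4.80 FPKM in the knockdown and 6.33 FPKM in its control, so that Mll1 exceeded it in 3 libraries and was slightly below it in bulk cells. Setd1a exceeded Mll3 by 5.94-fold in mammospheres and 6.03-fold in bulk cells, and by 16.3-fold in the knockdown and 14.2-fold in its control.

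All 5 catalytic subunits were lower in the knockdown library, by log2 changes of −0.34 for Mll2, −0.27 for Mll3, −0.26 for Wbp7, −0.20 for Setd1a and −0.17 for Mll1. Their median, −0.26, was the lowest of the 9 role groups. As plain ratios Mll2 and Mll3 were both 1.32-fold lower. Of all measured genes, 51.2% lay below 0 in the knockdown. A change as low as that of Mll2 or lower was held by 7.16% of them, and one as low as that of Mll1 or lower by 20.6%. The lowest p among the 5 in the authors' deposited table was 0.149, for Mll2, with q = 0.999. In mammospheres 4 of the 5 lay slightly above 0 (0.07 to 0.17), where 34.7% of all measured genes lay above 0. Mll2 was at −0.28, or −0.04 relative to the median gene.

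The SET1-specific subunits differed by less than 1.5-fold in both comparisons. Wdr82, which ties the SET1 complex to RNA polymerase II, had 34.6 FPKM in mammospheres against 36.5 FPKM in bulk cells, and 38.3 FPKM in the knockdown against 44.7 FPKM in its control. Cxxc1, which binds unmethylated CpG, had 13.8 FPKM in mammospheres against 17.9 FPKM in bulk cells, and 20.5 FPKM in the knockdown against 20.6 FPKM in its control. The knockdown change of Cxxc1, −0.004, turned to 0.002 with centring. That of Wdr82 was −0.22, and its change in mammospheres, −0.08, was 0.16 relative to the median gene.

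Among partners of the Mll1 and Wbp7 complexes, Men1 and Hcfc1 were higher in mammospheres. Men1, encoding menin, the tumour suppressor protein that docks these enzymes on chromatin, had 18.8 FPKM in mammospheres and 10.8 FPKM in bulk cells, a 1.74-fold higher level (log2 change 0.75, or 0.98 relative to the median gene and 1.03 with the upper quartiles set equal). In the authors' deposited table it had p = 0.0129 and q = 0.093. Hcfc1, a large host cell factor that bridges transcription factors to the complexes, had 48.0 FPKM in mammospheres and 28.6 FPKM in bulk cells, 1.68-fold higher (0.73, or 0.97 relative to the median gene and 1.02 with the upper quartiles set equal), with q = 0.611 in the authors' deposited table. Of all measured genes 6.77% were as much higher as Men1 or more, and 7.08% as much as Hcfc1. Psip1, the chromatin tether also known as LEDGF, was on the other side, with 17.6 FPKM in mammospheres and 25.7 FPKM in bulk cells (−0.52, or −0.28 relative to the median gene). The order of Men1 and Psip1 therefore differed between the 2 libraries.

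In the knockdown these partners lay close together apart from Hcfc2. Men1 had 29.2 FPKM in the knockdown against 33.1 FPKM in its control, Psip1 had 40.5 FPKM against 45.8 FPKM, and Hcfc1 had 44.4 FPKM against 49.99 FPKM, each with a log2 change of −0.17. Hcfc2, the smaller paralog of Hcfc1, had 4.11 FPKM in the knockdown against 2.57 FPKM in its control, 1.60-fold higher as a plain ratio (log2 change 0.52). It was the member farthest from 0 in that comparison and the farthest above it, and 2.89% of all measured genes were as high or higher. It was also the least abundant of the 4 partners in each library, and its p in the authors' deposited table, 0.13, was the lowest of the 34 members there, with q = 0.999. In mammospheres Hcfc2 had 2.96 FPKM and in bulk cells 3.37 FPKM, a change of −0.14 that was 0.10 relative to the median gene.

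Kdm6a stood apart from the other partners of the Mll3 and Mll2 complexes in mammospheres. This X-linked H3K27 demethylase, also known as UTX, had 6.87 FPKM in mammospheres and 13.8 FPKM in bulk cells, 2.01-fold lower as a plain ratio and −0.91 on the scale with 1 FPKM added (−0.67 relative to the median gene), just short of the 2-fold limit used for counts. The authors did not test that row, and 19.3% of all measured genes had a change as low as that of Kdm6a or lower. Ncoa6, a nuclear receptor coactivator, had 11.1 FPKM in mammospheres and 9.28 FPKM in bulk cells. Paxip1, known as PTIP, had 9.04 FPKM in mammospheres and 9.61 FPKM in bulk cells, a change of −0.08 that was 0.16 relative to the median gene. Kdm6a was thus the highest of the 3 in bulk cells and the lowest in mammospheres. In the knockdown they lay close together, with Kdm6a at 8.50 FPKM against 10.2 FPKM in its control (−0.23), Paxip1 at 12.5 FPKM against 14.3 FPKM (−0.18) and Ncoa6 at 14.8 FPKM against 16.7 FPKM (−0.16).

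The largest difference of any member was that of Kdm6b in mammospheres. Kdm6b, also known as Jmjd3, is an H3K27 demethylase best known as an inducible gene of activated macrophages and stressed cells. It lies on mm9 chromosome 11, 69212019 to 69227177. It had 14.3 FPKM in mammospheres and 52.6 FPKM in bulk cells, 3.69-fold lower (log2 change −1.81, or −1.57 relative to the median gene), with p = 0.000925 and q = 0.00977 in the authors' deposited table. Of all measured genes, 6.84% had a change as low or lower. Leukocyte markers were lower in the same library, with the sums of 0.434 FPKM in mammospheres and 377 FPKM in bulk cells given above, and their part in this difference was not tested. In the knockdown Kdm6b had 11.4 FPKM against 14.6 FPKM in its control (−0.33), and p = 0.206 in the authors' deposited table. Phf8, an X-linked reader of trimethylated H3K4 that demethylates repressive marks, had 4.03 FPKM in mammospheres, 4.73 FPKM in bulk cells, 6.52 FPKM in the knockdown and 6.29 FPKM in its control. It was 1 of the 4 members above 0 in the knockdown, at 0.04, and its mammosphere change of −0.19 was 0.05 relative to the median gene. Both H3K27 demethylases were thus lower in mammospheres than in bulk cells, as were 65.3% of all measured genes. Kdm6b was the higher of the pair in all 4 libraries.

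**Figure D2:**
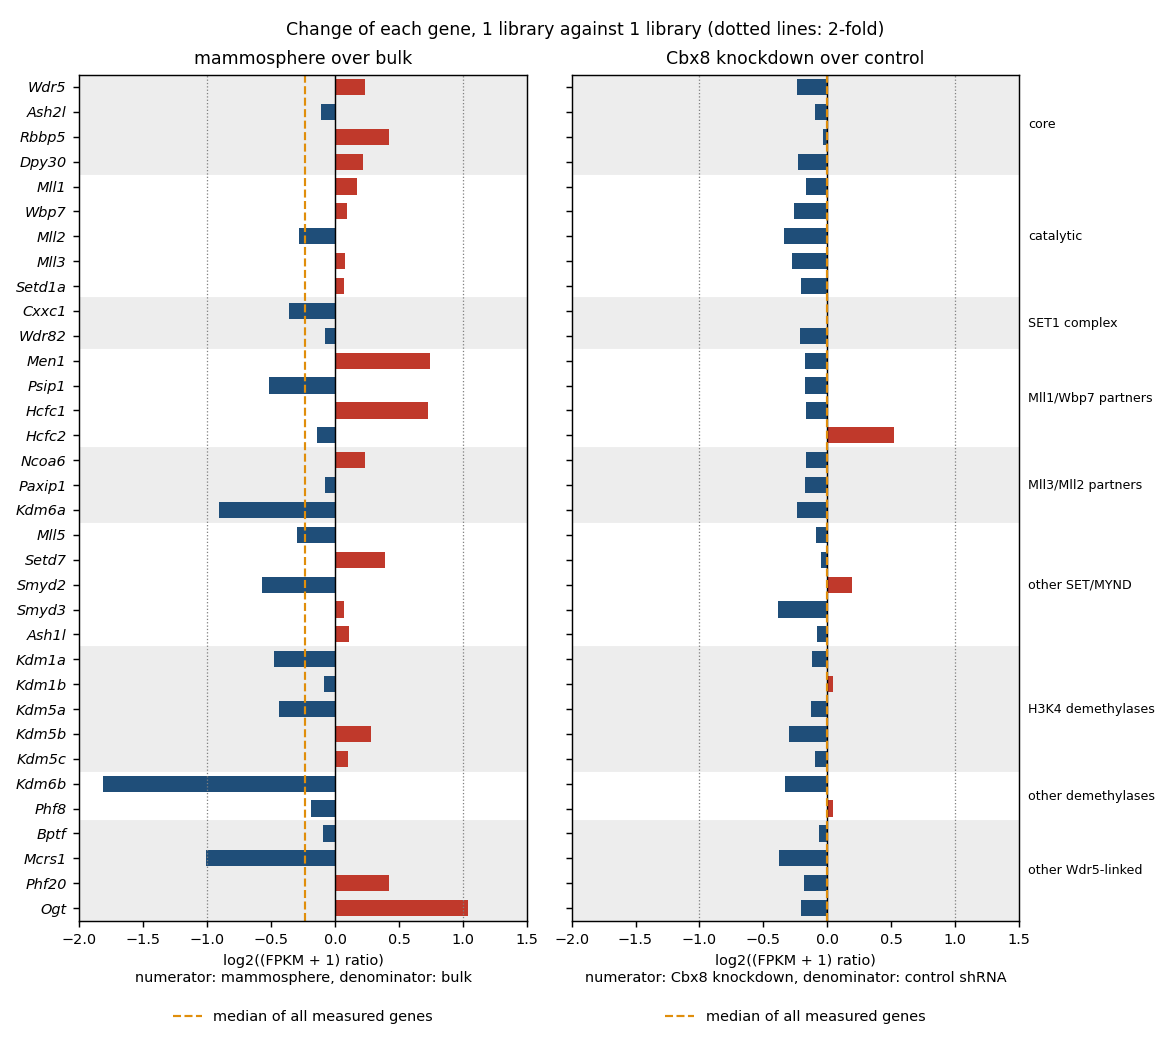
Log2 change of (FPKM + 1) for each of the 34 genes in mammospheres over bulk cells (left) and in the Cbx8 knockdown over control (right), with dotted lines at 2-fold and a dashed line at the median of all measured genes (−0.24 and −0.006). Ogt (1.04), Mcrs1 (−1.01) and Kdm6b (−1.81) pass 2-fold on the left, where 7 of the small negative bars lie right of the dashed line and turn positive relative to it, while on the right 30 bars point left and Hcfc2 (0.52) is the longest.

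The H3K4 demethylases differed less than Kdm6b. Kdm1a, the flavin-dependent enzyme LSD1, was the most abundant of the 5 in each library, with 25.8 FPKM in mammospheres against 36.4 FPKM in bulk cells, and 40.3 FPKM in the knockdown against 43.9 FPKM in its control. Its paralog Kdm1b was the least abundant, with 3.47 FPKM in mammospheres, 3.75 FPKM in bulk cells, 5.36 FPKM in the knockdown and 5.19 FPKM in its control. The log2 change of Kdm1a in mammospheres was −0.48, or −0.24 relative to the median gene. That of Kdm1b, −0.09, was 0.15 relative to it, and Kdm1b was 0.04 in the knockdown.

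The Kdm5 enzymes, Jumonji demethylases of trimethylated H3K4, did not lie on the same side in mammospheres. Kdm5a had 12.5 FPKM in mammospheres against 17.2 FPKM in bulk cells (−0.44, or −0.20 relative to the median gene), whereas Kdm5b had 19.9 FPKM against 16.2 FPKM (0.28, or 0.52 relative to it). The 2 thus stood in opposite order in these libraries. The X-linked Kdm5c had 23.3 FPKM in mammospheres and 21.7 FPKM in bulk cells. In the knockdown Kdm5b had 13.5 FPKM against 16.8 FPKM in its control (−0.30), Kdm5a had 13.1 FPKM against 14.4 FPKM (−0.13) and Kdm5c had 27.9 FPKM against 30.02 FPKM (−0.10).

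Among the other SET and MYND domain proteins, Smyd2 was the most abundant in all 4 libraries. Smyd2, a lysine methyltransferase with many substrates besides histones, had 36.7 FPKM in mammospheres against 55.1 FPKM in bulk cells (−0.57, or −0.33 relative to the median gene), and 69.7 FPKM in the knockdown against 60.8 FPKM in its control (0.19). Setd7, which adds a single methyl group to H3K4 and to other proteins, had 22.6 FPKM in mammospheres against 17.1 FPKM in bulk cells (0.39), and 41.3 FPKM in the knockdown against 42.8 FPKM in its control. Smyd2 and Setd7 thus lay on opposite sides of 0 in each comparison, close to it in the knockdown. Smyd3 was the lowest of the 5, with 4.95 FPKM in mammospheres, 4.66 FPKM in bulk cells, 2.43 FPKM in the knockdown and 3.48 FPKM in its control. Its knockdown change, −0.38 and 1.43-fold as a plain ratio, was the lowest of the 34, and 5.36% of all measured genes lay as low or lower. Mll5, a SET domain protein without established H3K4 methyltransferase activity, had 11.9 FPKM in mammospheres, 14.8 FPKM in bulk cells, 12.7 FPKM in the knockdown and 13.5 FPKM in its control. Its interval overlaps the row of Srpk2, a kinase gene of about the same level, with 11.3 FPKM in both mammospheres and bulk cells, and with 13.0 FPKM in the knockdown and 12.2 FPKM in its control. No source used here says whether reads were counted by strand, so the split of reads between these rows is uncertain. Ash1l, an H3K36 methyltransferase, had 11.03 FPKM in mammospheres, 10.2 FPKM in bulk cells, 11.1 FPKM in the knockdown and 11.8 FPKM in its control.

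The genes of other complexes linked to Wdr5 held both of the remaining 2-fold differences. Ogt (mm9 chromosome X, 98835402 to 98879690), the enzyme that adds O-linked N-acetylglucosamine to proteins and cleaves Hcfc1 to its mature form, had 50.3 FPKM in mammospheres and 24.0 FPKM in bulk cells. That was 2.10-fold higher (log2 change 1.04, or 1.27 relative to the median gene), with p = 0.0501 and q = 0.254 in the authors' deposited table, and 3.23% of all measured genes were as high or higher. Ogt and its substrate Hcfc1 were both higher in mammospheres, at 50.3 and 48.0 FPKM against 24.0 and 28.6 FPKM in bulk cells. In the knockdown Ogt had 36.1 FPKM against 41.9 FPKM in its control (−0.21).

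Mcrs1 and Phf20 encode subunits of the NSL acetyltransferase complex, in which Wdr5 is a scaffold. Mcrs1 had 9.23 FPKM in mammospheres and 19.6 FPKM in bulk cells, 2.12-fold lower (log2 change −1.01, or −0.77 relative to the median gene), in a row the authors did not test, and 17.1% of all measured genes were as low or lower. Its interval (mm9 chromosome 15, 99055406 to 99082392) overlaps the row of Kcnh3, a potassium channel gene with 1.3003 FPKM in mammospheres and 0.0131 FPKM in bulk cells. As for Mll5 and Srpk2, the split of reads between these overlapping rows is uncertain. Mcrs1 was also lower in the knockdown, with 5.36 FPKM against 7.27 FPKM in its control (−0.38), where 5.51% of all measured genes were as low or lower. Phf20, a reader subunit of the same complex, had 15.8 FPKM in mammospheres against 11.5 FPKM in bulk cells (0.42), and 22.1 FPKM in the knockdown against 25.2 FPKM in its control (−0.18). The NSL subunits thus lay on opposite sides in mammospheres. Bptf, the largest subunit of the NURF remodeller and a reader of trimethylated H3K4, had 10.7 FPKM in mammospheres, 11.5 FPKM in bulk cells, 15.6 FPKM in the knockdown and 16.4 FPKM in its control. Its mammosphere change of −0.09 was 0.14 relative to the median gene.

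**Figure D3:**
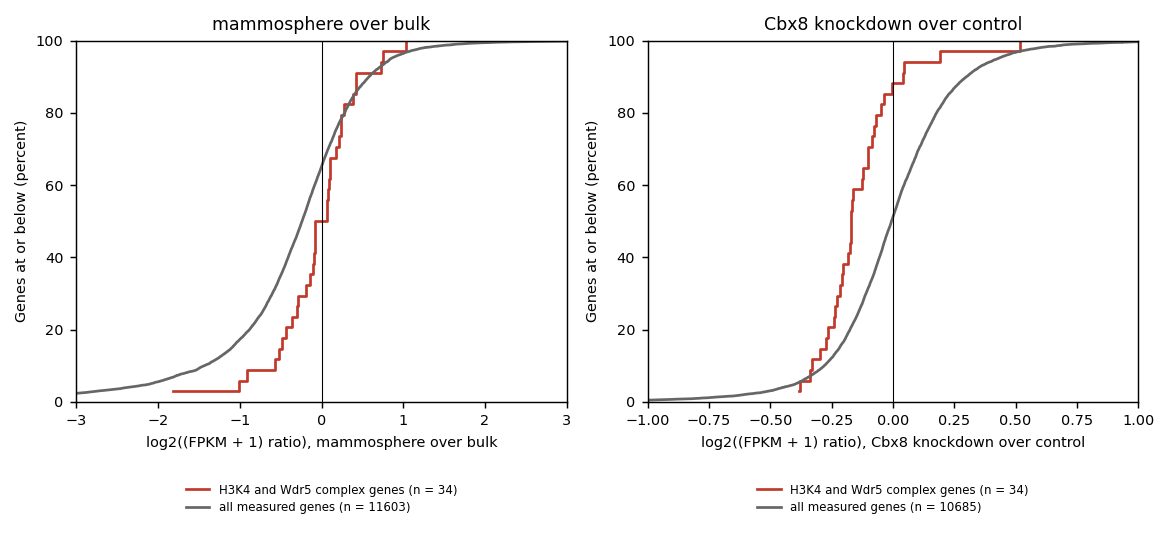
Percent of genes at or below each log2 change of (FPKM + 1), for the 34 genes and for all measured genes, in mammospheres over bulk cells (left, 11603 genes) and the Cbx8 knockdown over control (right, 10685 genes). In the knockdown the line of the 34 genes lies left of that of all genes over most of its course (medians −0.17 and −0.006), and in mammospheres it lies right of it over the negative range (medians −0.001 and −0.24).

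Set side by side on FPKM as deposited, 17 of the 34 genes were higher in mammospheres and lower in the knockdown, against 23.1% of the 10566 gene symbols measured in both tables. A further 13 were below 0 in both, against 28.0% of those symbols. The other 4 (Hcfc2, Smyd2, Kdm1b and Phf8) were lower in mammospheres and higher in the knockdown, against 35.5%, and 0 were above 0 in both, against 13.4%. These counts depend on the scaling, because 7 of the lower values in mammospheres (Ash2l, Bptf, Hcfc2, Kdm1b, Paxip1, Phf8 and Wdr82) turn positive relative to the median gene. After centring both tables, 21 were higher in mammospheres and lower in the knockdown (31.1% of all), 8 were below 0 in both (18.7%), 2 (Cxxc1 and Smyd2) were lower in mammospheres and higher in the knockdown (28.0%), and 3 (Hcfc2, Kdm1b and Phf8) were above 0 in both (22.1%). The joint counts also carry the counts of each comparison alone, with 17 of the 34 above 0 in mammospheres and 30 below 0 in the knockdown. The tables share no library, and whether the 2 changes of a gene go together was not tested.

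By level, the knockdown values below 0 lay mainly in the upper 3 quartiles of mean FPKM. In the lowest quartile 4 of 7 members lay below 0, close to the 54.6% of all measured genes there. In the second it was 12 of 12 (54.8% of all genes), in the third 6 of 6 (50.7%) and in the highest 8 of 9 (44.7%). The median change of the members was nonetheless lowest in the lowest quartile, at −0.27, against −0.03 for all measured genes there. It was −0.17 in the second, −0.14 in the third and −0.17 in the highest. By the span of the locus, 2 of 2 members in the shortest quartile lay below 0, 6 of 6 in the second, 12 of 15 in the third and 10 of 11 in the longest (55.6 kb or more), where all measured genes had 50.3%, 50.6%, 51.4% and 52.5%. Outside the core and catalytic subunits, 21 of 25 members lay below 0, with a median of −0.16.

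Other genes of the same pathways, in 5 lists, had medians between −0.14 and −0.01 in the knockdown, against −0.17 for the 34 genes and −0.006 for all measured genes, of which 51.2% lay below 0. The CoREST partners of Kdm1a, the corepressor complex in which LSD1 works, had 10 of 10 below 0 in the knockdown (median −0.14). Rcor2, a CoREST scaffold, was the farthest of them, with 17.0 FPKM in the knockdown and 28.5 FPKM in its control (log2 change −0.72). The H3K4 methylation readers, a list that also holds Bptf, had 10 of 12 below 0 (median −0.09), with Ing2 at 6.26 FPKM in the knockdown and 7.88 FPKM in its control. The PAF complex and H2B ubiquitination genes, which act upstream of H3K4 methylation, had 6 of 10 below 0 (median −0.02), and Ube2a, an H2B ubiquitin-conjugating enzyme, had 27.6 FPKM in the knockdown against 21.5 FPKM in its control (0.35). The ATAC and SAGA acetyltransferase genes had 6 of 10 below 0 (median −0.01), and Kat2b, an acetyltransferase, had 25.0 FPKM in the knockdown against 21.3 FPKM in its control (0.22). The counts of these last 2 lists are near the share of all measured genes. The NSL and NURF partners had 4 of 5 below 0 (median −0.04), with 5 of the 10 listed symbols measured and Phf20l1 the farthest from 0 (0.15). None of these genes reached 2-fold in the knockdown, where 0.299% of all measured genes were 2-fold higher and 0.449% 2-fold lower.

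In mammospheres the same lists held 2 genes at least 2-fold lower and 0 at least 2-fold higher, against the 17.3% and 3.54% of all measured genes given above. Ing3, a reader subunit of an acetyltransferase complex, had 3.81 FPKM in mammospheres and 14.3 FPKM in bulk cells (log2 change −1.67). Phf20l1, a paralog of Phf20, had 4.04 FPKM in mammospheres and 9.84 FPKM in bulk cells (−1.11), on the opposite side from Phf20. The PAF and H2B ubiquitination genes had 9 of 10 below 0 (median −0.45, or lower than the −0.24 of all measured genes), led by Ube2a with 12.6 FPKM in mammospheres and 22.8 FPKM in bulk cells. Of all measured genes 65.3% lay below 0 there. The ATAC and SAGA genes, with 7 of 10 below 0 (median −0.25), were near that share and that median, and Kat2b was the farthest from 0 among them, with 7.01 FPKM in mammospheres and 11.6 FPKM in bulk cells (−0.65). The CoREST partners had 4 of 10 below 0 (median 0.12), with Hmg20b, another CoREST subunit, at 10.5 FPKM in mammospheres and 15.4 FPKM in bulk cells (−0.51). The readers had 6 of 12 below 0 (median −0.04) and the NSL and NURF partners 5 of 5 (median −0.49).

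**Figure D4:**
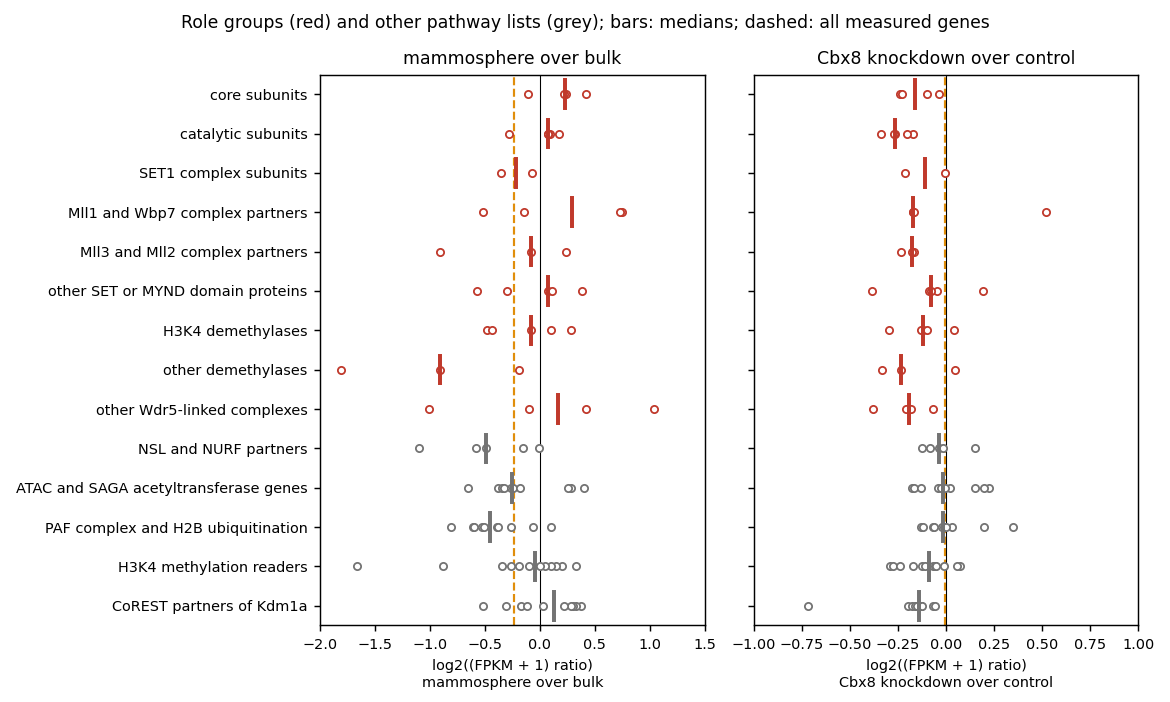
Log2 change of (FPKM + 1) of each measured gene (circles) in the 9 role groups of the 34 genes (red) and in 5 other pathway lists (grey), in mammospheres over bulk cells (left) and the Cbx8 knockdown over control (right), with bars at the medians and a dashed line at the median of all measured genes. All 9 red medians lie below 0 on the right, from −0.26 for the catalytic subunits to −0.08 for the other SET and MYND domain proteins.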

How the data were processed

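Polyadenylated RNA was measured in 4 libraries, 1 per group. The submitters' processing notes name build mm9 and TopHat 1.4.0 with Cufflinks 1.3.0 and Cuffdiff (listed as 0.0.7), besides FastQC 0.10.0. Their settings and the strand of the reads are stated in no source used here. The authors deposited 2 Cuffdiff tables with FPKM per row and, per the file headers, the p-value, q-value and test statistic score of each row, which are quoted only as theirs. Their log2 column was not used. Of 22440 rows in the mammosphere table, they tested 4045, left 18363 untested and marked 32 as failed or over the fragment limit; all 11708 rows of the knockdown table were tested. The knockdown table has 0 rows at 0 FPKM, and a gene silent in either library may be absent from it. The files hold no counts, so depth is unknown and no interval was computed.

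Fold changes used a pseudocount of 1 FPKM, and measured rows had 1 FPKM or more in either library and were not failed. Genes were counted at 2-fold. With 1 library per group no test was made. The members and lists were chosen with earlier results of these data known. Every member is named. Of each other list and marker list up to 3 genes with the largest changes could be named. Kcnh3, Srpk2 and the markers Fcer1g, Cd3e, Lum, Dpt, Epcam, Krt19, Cldn7 and Elf5 were named after their values were seen. Counting was tested on simulated data without low reference levels and with planted changes well beyond 2-fold. That test therefore does not cover genes of low level or changes near the 2-fold limit. Promoters are those of RefSeq (GRCm38.p6), matched by symbol. Alternatives were pseudocounts, filters, the authors' status, scalings, summed rows, a 1.5-fold limit and the authors' q. Computation used Python 3.11.15 with pandas 2.3.3, numpy 2.4.6 and matplotlib 3.10.9.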

Additional observations from a re-analysis of the deposited data

How the results depend on the processing

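In mammospheres over bulk cells, the median log2 change of the members (−0.001) was 0.072 among the 29 with 5 FPKM or more in either library, 0.10 among the 15 rows the authors tested, 0.24 after centring on the median gene and 0.27 with equal upper quartiles. The count below 0 (17 of 34) was 6 of 15 in tested rows, and 10 of 34 after centring and with equal upper quartiles. The count of genes 2-fold different (3) was 6 at a 1.5-fold limit, 1 by the authors' q, 1 with a pseudocount of 5 FPKM, 2 after centring (1 higher, 1 lower) and 4 with equal upper quartiles, where Ogt (1.33), Men1 (1.03) and Hcfc1 (1.02) were higher, Kdm6b (−1.53) was lower and Mcrs1 (−0.74) did not reach 2-fold. In the knockdown over control, the median (−0.17) was −0.18 with 0.1 FPKM added, −0.14 with 5 FPKM added and −0.21 with equal upper quartiles. The count of 2-fold genes stayed 0 in the knockdown under the 10 alternatives run, and the count below 0 (30 of 34) was 29 of 34 after centring and 28 of 31 with 5 FPKM or more in either library, and 30 of 34 under the others. The causes were not tested beyond the fewer genes in the filtered sets. No member's 2-fold difference changed sign under any alternative. No paired analysis was possible because each group has 1 library. With 1 library per group no leave-one-out was possible, and neither the difference of Kdm6b nor the small knockdown changes have a replicate check.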
